A study of Homo sapiens with 18 samples.

Results

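Broad H3K4me3 domains were examined in MOLM-13 cells, an established line of human acute myeloid leukemia in which the KMT2A gene is rearranged. Overlapping intervals of the H3K4me3 files were merged into 16123 loci, and 710 of these loci with a merged width of 8 kb or more were taken as broad. Each locus was counted once, by its widest interval. The cells had been treated with 100 nM PR-957 (ONX-0914), an inhibitor of the immunoproteasome subunit PSMB8, or with the solvent DMSO, for 72 h according to the labels, whereas a legend of the study gives a shorter time. Cut&Tag, in which an antibody directs the transposase Tn5 to chromatin, was carried out for H3K4me3, H3K27ac, H3K4me1 and H3K27me3 with 2 libraries per treatment and modification, 16 libraries in all. All groups are the same cell line without a genetic alteration by the experimenters. The labels do not say whether libraries of 1 group came from separate cultures, so p-values measure only the spread between these libraries.

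Trimethylation of lysine 4 of histone H3 is written by the SET1 and KMT2 enzymes, is placed around active promoters, and usually covers a narrow stretch on either side of the start site. At a minority of genes it spreads far into the transcribed part, and such broad domains are known for genes of cell identity and for tumor suppressors. H3K27ac marks active promoters and enhancers, H3K4me1 the flanks of promoters and enhancers, and H3K27me3 is the mark of Polycomb repression. Promoters that carry H3K4me3 and H3K27me3 together are called bivalent, a state well known at genes of developmental transcription factors. KMT2A fusion proteins are known to keep a set of genes such as the HOXA genes and MEIS1 active in leukemia.

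The total count over all listed intervals was 30070119 to 44591150 per H3K4me3 library, 9885836 to 14165777 per H3K27ac library, 15204186 to 30584219 per H3K4me1 library and 10032503 to 12047958 per H3K27me3 library. Levels are given as CPM, the count of the widest interval of a locus scaled to the TMM-adjusted total over the widest intervals of all loci of that modification, and as CPM per kb of that interval. They are therefore relative to the other loci of the same modification. The cells were measured in bulk, so that fewer cells with a modification and less of it per cell cannot be told apart. As a check of the cell type, 9 of 11 myeloid marker genes and 6 of 16 markers of other lineages had a start site in an H3K4me3 locus. The myeloid markers without one were MPO and FCGR1A, and the other markers with one were PAX5, EBF1, EPCAM, KRT18, COL1A1 and PECAM1. Among the broad domains were 4 of the myeloid markers (CD68, CEBPA, TYROBP and FLT3) and 1 of the others (PECAM1, an adhesion molecule of endothelium that blood cells also carry).

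The promoters of 6 genes are shown to convey how unlike the underlying DNA of broad domains was. HOXA9 and MEIS1 stand for the KMT2A fusion targets, CEBPA for the myeloid transcription factors, TYROBP for the myeloid signaling adaptors, HMX3 for the developmental regulators under H3K27me3, and H4C9 for the replication-dependent histone genes. Each line holds the 250 bases before the start site, 5′ to 3′ on the strand of the gene, from RefSeq (GRCh38.p14), with CpG dinucleotides in capitals. The windows lie at chr7:27165538-27165787 (minus strand), chr2:66434875-66435124 (plus strand), chr19:33302535-33302784 (minus strand), chr19:35908296-35908545 (minus strand), chr10:123135720-123135969 (plus strand) and chr6:27139032-27139281 (plus strand), in none of which GENCODE lists an exon.
HOXA9: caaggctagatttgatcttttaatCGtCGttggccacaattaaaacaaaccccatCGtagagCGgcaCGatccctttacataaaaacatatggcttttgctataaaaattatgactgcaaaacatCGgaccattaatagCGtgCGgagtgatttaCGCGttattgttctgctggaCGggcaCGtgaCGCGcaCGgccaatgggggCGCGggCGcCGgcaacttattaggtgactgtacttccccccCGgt
MEIS1: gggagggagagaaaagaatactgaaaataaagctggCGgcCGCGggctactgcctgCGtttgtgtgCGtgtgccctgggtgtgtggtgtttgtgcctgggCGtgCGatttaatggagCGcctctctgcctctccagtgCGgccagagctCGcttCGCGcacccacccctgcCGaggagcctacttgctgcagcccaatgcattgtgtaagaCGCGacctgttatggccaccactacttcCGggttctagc
CEBPA: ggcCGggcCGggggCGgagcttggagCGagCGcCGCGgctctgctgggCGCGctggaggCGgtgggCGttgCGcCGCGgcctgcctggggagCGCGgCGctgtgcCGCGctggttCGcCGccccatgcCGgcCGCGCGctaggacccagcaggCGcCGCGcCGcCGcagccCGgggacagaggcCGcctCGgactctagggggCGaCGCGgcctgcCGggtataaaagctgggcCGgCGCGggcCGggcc
TYROBP: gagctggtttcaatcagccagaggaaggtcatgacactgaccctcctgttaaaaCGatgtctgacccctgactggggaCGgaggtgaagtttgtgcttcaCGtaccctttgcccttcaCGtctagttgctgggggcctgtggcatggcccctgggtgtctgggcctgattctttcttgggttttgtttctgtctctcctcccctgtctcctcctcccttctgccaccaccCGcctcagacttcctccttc
HMX3: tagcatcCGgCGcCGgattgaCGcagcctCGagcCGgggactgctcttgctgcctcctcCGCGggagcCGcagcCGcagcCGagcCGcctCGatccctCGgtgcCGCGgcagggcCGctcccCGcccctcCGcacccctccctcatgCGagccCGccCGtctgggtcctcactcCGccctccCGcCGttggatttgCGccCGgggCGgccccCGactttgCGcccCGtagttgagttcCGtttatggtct
H4C9: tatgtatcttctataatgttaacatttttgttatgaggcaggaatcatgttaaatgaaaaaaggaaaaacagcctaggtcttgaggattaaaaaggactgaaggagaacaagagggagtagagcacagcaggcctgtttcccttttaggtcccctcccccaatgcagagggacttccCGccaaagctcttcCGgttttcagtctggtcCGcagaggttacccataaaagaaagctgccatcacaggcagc
CpG dinucleotides numbered 41 before CEBPA and 32 before HMX3, 20 before HOXA9 and 16 before MEIS1, but 5 before TYROBP and 3 before H4C9. All 6 start sites lay in H3K4me3 domains of 8 kb or more, so that a start site in a broad domain did not have a CpG-rich window before it in each case. A domain can hold further promoters, as that of H4C9 also held the start sites of H2BC12 and H2AC12. The windows therefore do not describe whole domains.

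Over 1032 RefSeq promoters whose start site lay in a broad domain, the median number of CpG dinucleotides in the window from 250 bases before to 50 bases after the start was 27. It was 28 for the 6066 promoters in loci of 4 to 8 kb, 26 for the 5174 in loci of 2 to 4 kb, 22 for the 504 in loci under 2 kb and 7 for the 8798 outside any H3K4me3 locus. The letters TATAAA, searched on both strands, were present in 8.14% of the promoters in broad domains and in 4.71% of those in loci of 4 to 8 kb, beside 9.46% of all 21574 promoters of protein-coding genes in the table. CCAAT, searched on both strands, was present in 34.6% and 35.4% of the same 2 groups and in 34.8% of all promoters. GGGCGG, the core of the GC box, was present in 73.4% and 74.3% on either strand and in 56.8% of all promoters. These shares are a description of the letters in the windows.

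The width of the domains was the measure that chose them and is given as a description. The median width was 9799 bp, against 3513 bp over all H3K4me3 loci, and 374 domains measured less than 10 kb, 267 measured 10 to 15 kb, 49 measured 15 to 20 kb and 20 measured 20 kb or more. With 4.40% of the loci, the domains held 12.2% of the bases under H3K4me3. Each domain was merged from 4 to 11 listed intervals and 364 domains from exactly 4. In 581 domains a single interval already measured 8 kb, while the other 129 reached that width only by merging, and all listed intervals reached it in 119. The narrowest interval of a domain measured, in the median, 54.0% of the widest one. Just inside the limit lay the loci of RRP12 and PGAM1 (8001 bp), SLC35C2 (8003 bp) and LUC7L3 (8005 bp). Just outside lay a locus near TENM3, the locus of NOA1 and POLR2B and that of C21orf58 and PCNT, each with 7998 bp. The 4 libraries gave 64.0 to 142 CPM of H3K4me3 inside and 161 to 240.0 CPM outside, so that the loci just outside held more H3K4me3 than those just inside.

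**Figure D1:**
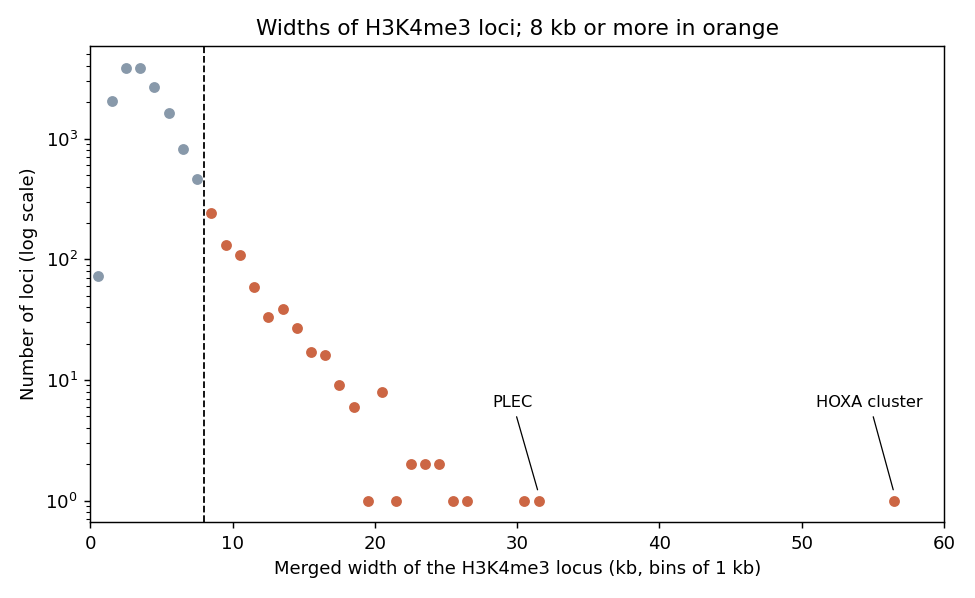
Number of H3K4me3 loci (vertical axis, log scale) by merged width (horizontal axis, kb, in bins of 1 kb); each point is a bin, orange from 8 kb on, and the dashed line marks 8 kb. The counts fall steadily through the limit, and the HOXA cluster (56.7 kb) and PLEC (31.7 kb) stand at the far end.

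The widest domain by far lay over the HOXA cluster (chr7:27145930-27202678, hg38 as listed in the files) with 56748 bp and the start sites of HOXA3, HOXA6, HOXA7, HOXA9, HOXA10, HOXA11 and HOXA13, homeobox transcription factors of body patterning and of blood progenitors. The next ones were the domain of PLEC, a cytoskeletal linker, with 31664 bp (chr8:143927155-143958819) and that of GRK2, a kinase of G protein-coupled receptors, and ANKRD13D with 30792 bp (chr11:67262236-67293028). A domain of 26233 bp at chr22:46033967-46060200 held no protein-coding start site and lay 56805 bp from that of WNT7B; the start sites of the noncoding genes LINC00899, PRR34, PRR34-AS1 and MIRLET7BHG, the host of let-7 microRNAs, lay inside. Among the next were the domains of MFSD3, RECQL4, LRRC14, LRRC24 and C8orf82 (25419 bp), TSPOAP1 (24923 bp), REXO1 and KLF16 (24084 bp), MOB3A and IZUMO4 (23710 bp), CBARP, ATP5F1D and MIDN (23396 bp), ZNF580, ZNF581, CCDC106 and U2AF2 (22729 bp), a domain 220577 bp from GSDMC on chromosome 8 (22010 bp), CIRBP and FAM174C (21111 bp), HMX3 and HMX2 (20554 bp) and GLI4 (20504 bp). Over the whole set, chromosome 19 held 101 of the 710 domains and had the highest share of broad loci, 9.41% of its 1073 H3K4me3 loci against 4.40% genome-wide.

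A protein-coding start site in GENCODE release 44 lay inside 647 of the 710 domains (91.1%), beside 87.3% of the 5571 loci of 4 to 8 kb, 63.7% of the 7719 loci of 2 to 4 kb and 27.1% of the 2123 loci under 2 kb. Start sites of 2 or more protein-coding genes were held by 218 domains (30.7%), against 16.7% of the loci of 4 to 8 kb, and 157 domains (22.1%) held start sites on both strands, against 14.6%. A wider window meets more start sites by its size alone. In the 406 domains with 1 gene and 1 strand to orient them, the domain extended 6291 bp downstream and 3378 bp upstream of the start site in the median, and 308 of the 406 (75.9%) were longer downstream. In the loci of 4 to 8 kb the medians were 3038 and 1957 bp. The share longer downstream was 82.2% there, 79.7% in the loci of 2 to 4 kb, 68.0% in those under 2 kb and 80.0% over all such H3K4me3 loci. The longest stretches into the gene were those of GLI4 (16788 bp), HNRNPF (16057 bp) and FUT4 (16055 bp), while PLEC and TSPOAP1 were longer upstream (19222 and 18058 bp). The domains covered 27.8% of the transcript in the median and the whole transcript in 74 of the 406, GFI1 and GLI4 among them. The median GC content was 54.3% and the median number of CpG dinucleotides 33.4 per kb, against 51.7% and 35.0 per kb in the loci of 4 to 8 kb.

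Lists of genes with known roles showed which kinds of genes lay in the domains. Of the 11939 protein-coding genes with a start site in an H3K4me3 locus, 943 (7.90%) had it in a broad domain. This share was 19 of 36 for transcription factors of the myeloid lineage, and the widest were those of MEF2D (20345 bp), ZEB2 (17918 bp), GFI1 (17635 bp), a repressor needed for granulocytes, CEBPA (15041 bp), the main factor of granulocyte commitment, NFE2 (14122 bp) and LYL1 (13699 bp). Transcription factors of other lineages had 8 marked genes of 20, with 1 of these 8 broad, GATA2 (10577 bp), which blood stem cells also use. For surface and granule proteins of myeloid cells the count was 5 of 18 marked genes, namely CD68, TYROBP, FLT3, the integrin chain ITGB2 and the chemokine receptor CXCR4. RUNX1, a transcription factor of blood formation, had 2 separate broad domains, of 11802 and 8696 bp.

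KMT2A fusion targets that the study discusses were in broad domains in 11 of 19 marked genes, which came down to 5 distinct domains because 7 of the genes share the HOXA domain. The other 4 were MEIS1 (16320 bp), the cofactor of HOXA9, the receptor kinase FLT3 (11234 bp), the cell cycle kinase CDK6 (8590 bp) and PBX3 (8342 bp), a further cofactor of HOX proteins. This list was taken from the study of these samples, so that its count is not independent evidence. Of 14 marked genes in a second list of known fusion targets 6 were broad, ZEB2, SKIDA1, RUNX1, LMO2, MYC and MYB. Immediate early genes and feedback inhibitors of signaling were broad in 16 of 46 cases, led by ZFP36 (18475 bp), a protein that destabilizes mRNA, CISH (18471 bp), an inhibitor of cytokine signaling, and JUNB (16377 bp). Housekeeping genes of RNA and translation were broad in 13 of 27 cases, among them EIF4A1, which shares its domain with CD68 (15226 bp), and HNRNPA1 (14492 bp). Tumor suppressors had 8 of 55 and chromatin regulators with the KMT2A complex 6 of 33, SETD1B (17128 bp), KDM6B (14279 bp), CXXC1, DOT1L, MLLT1 and HCFC1. The proteasome list, which also holds the transcription factors NFE2L1 and NFE2L2, had 1 of 32, PSMC2, an ATPase of the regulatory particle (8897 bp). The immunoproteasome subunits PSMB8 and PSMB9 had no start site in a listed H3K4me3 locus. These shares stand beside 7.90% over all marked genes and were not tested. The lists share genes, so that their counts are not separate. ZEB2, RUNX1, LMO2, MYC and MYB stand in the second target list and among the myeloid transcription factors. MYC is also among the immediate early genes, and RUNX1, IKZF1 and FOXO3 are also among the tumor suppressors.

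No protein-coding start site lay inside 63 of the domains, at a median distance of 24223 bp to the nearest one, and 16 of them were more than 50 kb away. A named long noncoding RNA started inside 25 of the 63. Among these were the domain of MALAT1 (18785 bp at chr11:65490959-65509744) and that of NEAT1 (15008 bp at chr11:65415727-65430735), nuclear RNAs of nuclear speckles and paraspeckles. Of all 1562 microRNA hairpins in the RefSeq table, 227 lay inside an H3K4me3 locus and 54 inside a broad domain, in 47 domains. They included microRNAs known for the myeloid and other blood lineages, whose mature sequences are shown so that their seeds, the part that pairs with target mRNAs, can be compared. Sequences are 5′ to 3′ with the seed (bases 2 to 8) in capitals.
hsa-miR-142-3p: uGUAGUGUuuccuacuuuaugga
hsa-miR-223-3p: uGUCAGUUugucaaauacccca
hsa-miR-23a-3p: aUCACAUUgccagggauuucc
hsa-miR-27a-3p: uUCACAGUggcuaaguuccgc
hsa-miR-24-3p: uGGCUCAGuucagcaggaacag
hsa-miR-196b-5p: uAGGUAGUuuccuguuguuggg
hsa-miR-191-5p: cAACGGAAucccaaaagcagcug
hsa-miR-195-5p: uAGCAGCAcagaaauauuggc
hsa-miR-497-5p: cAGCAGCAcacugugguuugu
Of these, miR-195-5p and miR-497-5p share a seed and lie in 1 domain with the gene RNASEK, and the other 7 seeds differ. The mature miR-142-3p lies at chr17:58331245-58331267 in the TSPOAP1 domain, miR-223-3p at chrX:66018937-66018958 in a domain 16675 bp from VSIG4, and miR-196b-5p at chr7:27169528-27169549 in the HOXA domain. miR-23a-3p, miR-27a-3p and miR-24-3p come from 1 cluster in the domain of MIR23AHG at chr19:13832574-13852167. miR-191-5p lies in the domain of DALRD3, NDUFAF3 and IMPDH2. H3K27ac at the MIR23AHG domain was 1572 and 1627 CPM in DMSO and 1592 and 1628 CPM in PR-957, with overlapping treatments. At the TSPOAP1 domain it was 1508 and 1551 CPM in DMSO and 1407 and 1386 CPM in PR-957, without overlap, and the log2 fold change of -0.13 ± 0.04 (SE) did not pass (edgeR adjusted p = 0.12). At the MIR223 domain it was 255 and 265 CPM in DMSO and 216 and 218 CPM in PR-957, again without overlap and without a call (log2 fold change -0.26, edgeR adjusted p = 0.155).

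Nearly all domains carried H3K27ac. An H3K27ac locus overlapped 706 of the 710 (99.4%), and H3K27ac intervals covered 85.8% of a domain in the median, against 97.3% and 76.8% for the loci of 4 to 8 kb. The 4 domains without an H3K27ac locus were those of OTX1, ONECUT2, BARX1 and NKX2-3, all homeobox-type transcription factors of development, and all 4 were covered by H3K27me3 over 100% of their length. H3K27ac loci of 10 kb or more numbered 711. They represented 234 domains, which is 33.0% of the domains, and 235 of them overlapped a domain, which is 33.1% of the wide H3K27ac loci. The median H3K27ac level in DMSO was 16.5 CPM per kb in the domains and 14.9, 9.74 and 7.21 CPM per kb in the 3 narrower classes. The H3K4me3 level, by contrast, was 19.2 CPM per kb in the domains and 19.2 CPM per kb in the loci of 4 to 8 kb, with 9.41 and 3.12 CPM per kb below.

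The 10 domains with the most H3K27ac per kb in DMSO were a domain 2465 bp from SPAG6 (105 CPM per kb), the histone genes H3C4, H2AC7 and H2BC7 (96.1), RPL7 with RDH10 (84.2), AMD1, an enzyme of polyamine synthesis (80.4), a domain 67378 bp from PPARA with LINC02939 (79.6), HIPK3 (77.8), the MIR23AHG domain (74.7), the histone genes H3C12, H2AC17 and H2BC17 (72.4), DNAAF2 (72.4) and CDK6 (72.4). These levels are per kb of the H3K27ac interval and not of the domain. H3K27ac covered 50.9% of the AMD1 domain, 65.0% of that of HIPK3 and 52.5% of that of DNAAF2, and at least 86.4% of the others. H3K4me1 overlapped 692 domains (97.5%) and covered 88.4% of a domain in the median, against 71.7% of the loci of 4 to 8 kb with a median cover of 59.9%, 49.7% of those of 2 to 4 kb with 0% and 54.2% of those under 2 kb with 88.5%. The 18 domains without an H3K4me1 locus included MEIS1, CDK6, BCL11A, SPRED2 and H3C4 with H2AC7 and H2BC7. The median H3K4me1 level in DMSO was 7.32 CPM per kb, against 4.57, 5.78 and 6.99 CPM per kb in the 3 narrower classes in order of falling width. H3K27me3 was the exception among the modifications, with an overlapping locus at 78 domains (11.0%). The share was 8.29% in the loci of 4 to 8 kb, 19.3% in those of 2 to 4 kb and 21.4% in those under 2 kb.

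At least 50% of the length was covered by H3K27me3 in 41 of the 78 domains, or 5.77% of all 710. This share was 5.89% in the loci of 4 to 8 kb, 17.4% in those of 2 to 4 kb and 20.9% in those under 2 kb. The 41 domains held regulators of development, with HOXA, HMX3 and HMX2, OTX1, DLX2, SHOX2, OSR2, BARX1, NKX2-3, ISL2, IRX3, ONECUT2 and GATA2. They also held PTCH1, the Hedgehog receptor, the cyclins CCND1 and CCND2, and CBX8, a subunit of a Polycomb complex. Genes of other kinds were covered too, such as CRACR2B with CD151, FADS2 and ICAM4 with ICAM5. All of these were named after their values were seen. In 19 of the 41 the cover was complete to within 0.1 percentage points. Their GC content was higher than that of the 632 domains without H3K27me3 (59.9% against 53.6% in the median), as was their number of CpG dinucleotides (55.7 against 31.4 per kb), and their H3K27ac was lower (9.34 against 17.0 CPM per kb in DMSO). The 37 domains with less cover had 60.4% GC, 43.9 CpG dinucleotides per kb and 12.7 CPM per kb of H3K27ac in the median. Of the 41, 29 were also covered by H3K27ac over at least 50%, the HOXA domain over 90.8%. H3K27me3 and H3K27ac came from different libraries of many cells, so that an overlap of their intervals does not place both on 1 nucleosome or in 1 cell. The highest H3K27me3 levels among the 41 were those of a domain near C19orf25 (184 CPM per kb in DMSO), HOXA (126), STK3 with OSR2 (93.8), HMX3 with HMX2 (84.7), BARX1 (81.6), a domain near OPLAH (77.8), OTX1 (75.8) and CBX8 (69.8).

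The question of the treatment was how inhibition of PSMB8 moves these modifications, and H3K4me3 itself hardly moved at the broad domains. All 710 passed the filter on low counts, and 2 were called at an adjusted p under 0.05, 1 higher and 1 lower, which is 0.282% beside 0.198% of all 16122 loci tested (0.167% higher and 0.031% lower). The median log2 fold change was -0.03, beside -0.00 over all loci and -0.02, 0.01 and 0.16 at 4 to 8 kb, 2 to 4 kb and under 2 kb. Each of the 710 stayed within 1.5-fold of DMSO. An unadjusted p under 0.05 was found at 64 domains (9.01%), beside 6.65% of all loci. Both PR-957 libraries lay below both DMSO libraries at 197 domains (27.7%) and above at 64 (9.01%), beside 18.1% and 17.6% of all loci. The median rested on 1 library: without PR-957 replicate 1 it was 0.0028 and no domain was called. The share of H3K4me3 counts on the domains was 14.7% and 14.5% in DMSO and 14.1% and 14.6% in PR-957, which overlap (exact permutation test, two-sided, p = 0.667, where 2 libraries against 2 cannot go below 0.333).

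OTX1, a homeobox factor of brain development, held 69.4 and 62.8 CPM in DMSO and 92.5 and 83.9 CPM in PR-957 at a domain of 11943 bp (chr2:63048693-63060636). Both PR-957 libraries were above both DMSO libraries, and the domain rose by a log2 fold change of 0.41 ± 0.09 (SE) (edgeR adjusted p = 0.00331). DESeq2 did not make this call, and it was lost when DMSO replicate 2 or PR-957 replicate 1 was left out, with an adjusted p of up to 0.746. OCSTAMP, a protein of osteoclast fusion, held 78.6 and 66.0 CPM in DMSO and 48.3 and 61.6 CPM in PR-957. It fell by 0.40 on the log2 scale (edgeR adjusted p = 0.0212), and this call was lost with cyclic loess offsets, with DESeq2, and when DMSO replicate 1 or PR-957 replicate 1 was left out. With cyclic loess offsets, 4 domains were called, all higher. At the HOXA domain H3K4me3 was 807 and 768 CPM in DMSO and 668 and 727 CPM in PR-957, which do not overlap, with a log2 fold change of -0.17 ± 0.07 (SE) that did not pass (edgeR adjusted p = 0.546). MEIS1 had 392 and 403 CPM in DMSO and 379 and 384 CPM in PR-957 and a log2 fold change of -0.06 ± 0.07 (SE).

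**Figure D2:**
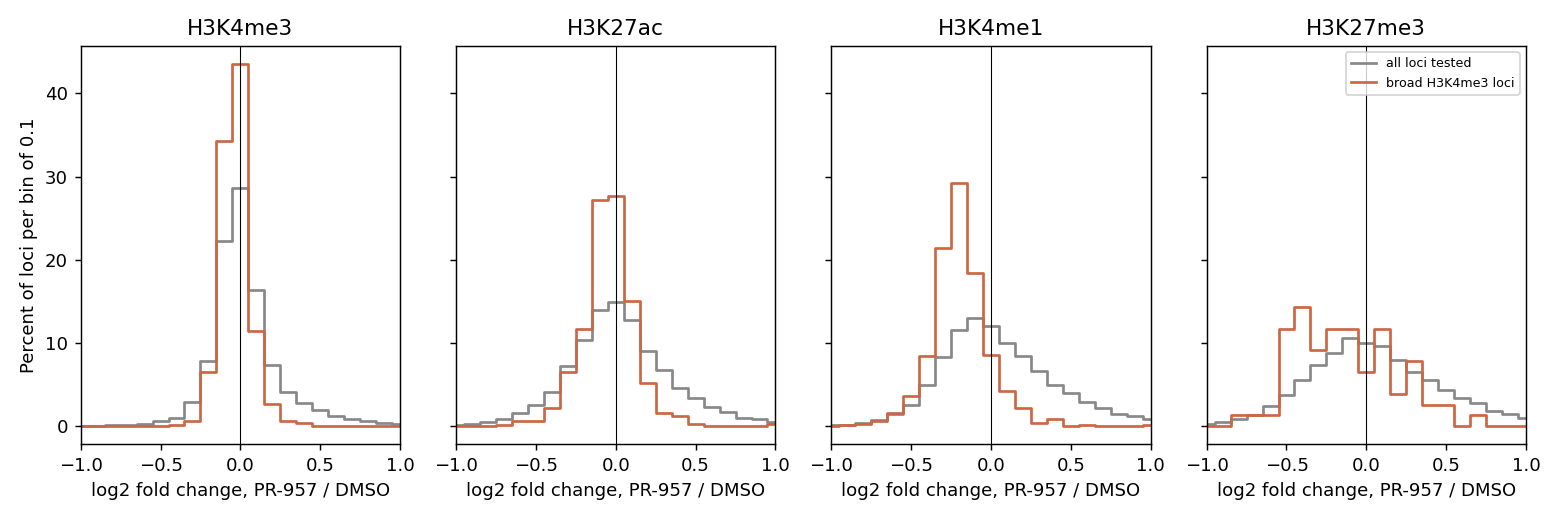
Distribution of log2 fold changes between PR-957 and DMSO (horizontal axes; bins of 0.1; values beyond ±1 not drawn) as percent of loci (vertical axis), for all loci tested (grey) and for the broad domains (orange). The medians of the domains are -0.03 for H3K4me3, -0.04 for H3K27ac, -0.20 for H3K4me1 and -0.17 for H3K27me3, beside -0.00, 0.01, 0.01 and 0.03 for all loci.

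H3K27ac fell at 12 of the 706 domains with a tested H3K27ac locus and rose at 1, which is 1.84% called beside 0.131% of all 30621 loci, or 0.0229% higher and 0.108% lower. The tested loci of 4 to 8 kb, 2 to 4 kb and under 2 kb were called in 0.295%, 0.081% and 0.0951%. Their median log2 fold changes were -0.02, -0.01 and -0.01. A mean count of at least 50 left 695 domains but only 15784 loci in all, so that the domains had higher counts than most loci. How far the counts account for the share called was not tested. The 706 domains are represented by 702 distinct H3K27ac loci. Of the 12 that fell, 6 were domains of replication-dependent histone genes on chromosome 6, whose products package newly made DNA. They were all such domains among the 710, a group formed after its values were seen. The domain of H2AZ1, a histone variant made throughout the cell cycle, with DNAJB14 had a log2 fold change of -0.15 and was not called. Whether the decrease goes with replication was not tested. The domain of H2BC13, H2AC13, H3C10, H2AC14 and H2BC14 (chr6:27806237-27817168) held 736 and 719.8 CPM in DMSO and 513 and 496 CPM in PR-957. That of H4C9, H2BC12 and H2AC12 (chr6:27137962-27150063) held 497 and 529.6 CPM in DMSO and 379 and 376 CPM in PR-957. That of H3C12, H2AC17 and H2BC17 (chr6:27887376-27896787) held 661 and 646 CPM in DMSO and 512 and 461 CPM in PR-957. In each of these the PR-957 libraries lay below the DMSO libraries without overlap. The log2 fold changes were -0.53 ± 0.05 (SE), -0.44 ± 0.06 (SE) and -0.43 ± 0.05 (SE), with adjusted p of 1.86e-21, 8.23e-11 and 1.92e-12 in edgeR.

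The other 3 histone domains fell too. H3C1, H4C1 and H4C2 (chr6:26019632-26028542) had 424 and 417 CPM in DMSO and 337 and 326 CPM in PR-957. H2BC11 and H2AC11 (chr6:27126403-27135658) had 580.5 and 550.3 CPM in DMSO and 465 and 448 CPM in PR-957. H3C4, H2AC7 and H2BC7 (chr6:26193420-26201629) had 669 and 687 CPM in DMSO and 555 and 544 CPM in PR-957. The treatments did not overlap in any of them, and their log2 fold changes were -0.34, -0.31 and -0.30. Over the 6 histone domains the median log2 fold change was -0.39 for H3K27ac. For H3K4me3 it was -0.09 with none called, and for H3K4me1 -0.07 over the 5 with a tested locus, again with none called. Histone genes are near-identical copies, and the sources used here do not say how reads that fit several of them were counted, so that the split among these domains is uncertain. Without PR-957 replicate 2 the calls at H2BC11 with H2AC11 and at H3C1 with H4C1 and H4C2 were lost (adjusted p 0.0955 and 0.0909).

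Of the 5 domains of KMT2A fusion targets that the study discusses, 2 fell in H3K27ac, MEIS1 and HOXA. At MEIS1 (chr2:66432001-66448321) H3K27ac was 829 and 841 CPM in DMSO and 676 and 687 CPM in PR-957, and it fell by 0.29 on the log2 scale (SE 0.05, edgeR adjusted p = 1.06e-06), a call that held under all 13 alternative fits. At the HOXA domain it was 896 and 922 CPM in DMSO and 812 and 772 CPM in PR-957, and the log2 fold change was -0.20 ± 0.04 (SE) (edgeR adjusted p = 0.00973). The HOXA call was lost with cyclic loess offsets, with a mean count of at least 50, and without DMSO replicate 2, PR-957 replicate 1 or PR-957 replicate 2, with adjusted p up to 0.417. The domains of FLT3, CDK6 and PBX3 had H3K27ac log2 fold changes of -0.12, -0.10 and -0.07 and were not called. Of the second list of fusion targets none of 6 was called, with a median of -0.17. The 19 myeloid transcription factor domains had a median of -0.08 and none was called. The log2 fold changes of the widest 6 were -0.16 at MEF2D, -0.07 at ZEB2, -0.11 at GFI1, -0.07 at CEBPA, 0.02 at NFE2 and -0.27 at LYL1.

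The remaining domains that fell were those of IER2, an immediate early gene, with STX10, of SLC3A2, the heavy chain of amino acid transporters, and 2 without a protein-coding start site. The domain of STX10 and IER2 had 543 and 537 CPM in DMSO and 431 and 466 CPM in PR-957 of H3K27ac and a log2 fold change of -0.27. SLC3A2 had 181 and 175 CPM in DMSO and 135 and 136 CPM in PR-957 and a log2 fold change of -0.40, and each of the 4 fits with 1 library left out lost this call. That at STX10 with IER2 was lost without PR-957 replicate 1 (adjusted p = 0.362) and with cyclic loess offsets (adjusted p = 0.2), and SLC3A2 was lost with those offsets as well (adjusted p = 0.178). The domain 21611 bp from TRPV2 had 353 and 367 CPM in DMSO and 307 and 286 CPM in PR-957. The domain 2465 bp from SPAG6, the one with the most H3K27ac per kb, had 704 and 751 CPM in DMSO and 654 and 609 CPM in PR-957. Both of these calls were lost without DMSO replicate 2, PR-957 replicate 1 or PR-957 replicate 2, with edgeR adjusted p of 0.24, 0.0792 and 0.382 near TRPV2 and 0.483, 0.0946 and 0.5 near SPAG6. Both were also lost with cyclic loess offsets (0.289 and 0.51) and with a mean count of at least 50 (0.0563 and 0.123), and that near SPAG6 further with library size only, with DESeq2 and with the GC trend removed, so that it was lost in 8 of the 13 alternatives. NR4A3, a nuclear receptor and immediate early gene that acts as a tumor suppressor in myeloid cells, was the 1 domain that rose, with 150.0 and 147 CPM in DMSO and 193 and 187 CPM in PR-957 and a log2 fold change of 0.35 ± 0.09 (SE) (edgeR adjusted p = 0.0452). That call was lost when any 1 of the 4 libraries was left out and in 4 further alternatives. Among the 13 calls, 5 held under all 13 alternatives: MEIS1 and the histone domains of H2BC13, H3C12, H4C9 and H3C4.

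**Figure D3:**
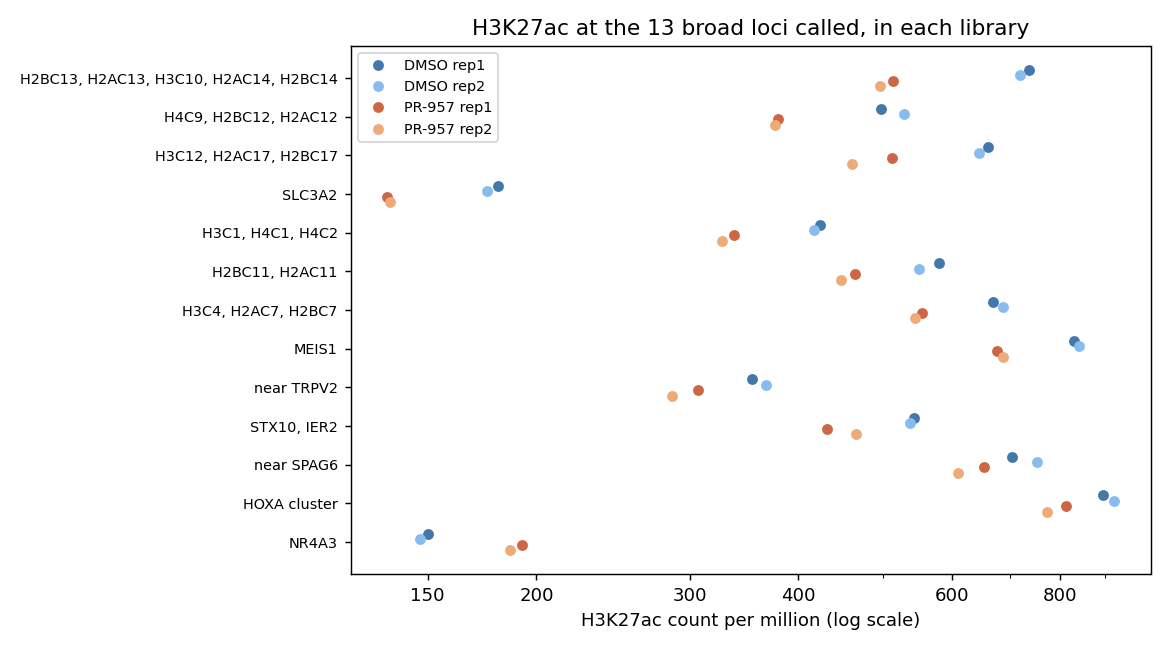
H3K27ac (horizontal axis, CPM, log scale) at the 13 broad domains called between PR-957 and DMSO, with 1 point per library and 1 row per domain, named by the protein-coding genes that start inside or by the nearest one. In all 13 the PR-957 libraries (orange) and the DMSO libraries (blue) do not overlap, and NR4A3 is the domain in which PR-957 is higher. The domains were called from these same libraries, so that the lack of overlap is no separate evidence. Of all loci tested, 17.6% were lower and 17.7% higher in both PR-957 libraries than in both DMSO libraries.

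Over all domains the median log2 fold change of H3K27ac was -0.04, beside 0.01 over all loci, and the share of H3K27ac counts on them was 12.9% and 12.9% in DMSO and 12.6% and 12.6% in PR-957. This is a difference of -0.32 percentage points with no overlap, for which the exact permutation test gives p = 0.333, the smallest that 2 libraries against 2 allow. Both PR-957 libraries were below both DMSO libraries at 228 domains (32.3%, beside 17.6% of all loci) and above at 107 (15.2%, beside 17.7%). An unadjusted p under 0.05 was found at 124 (17.6%, beside 6.84% of all loci). The ribosomal protein gene domains, 24 in number, had a median of -0.10 and none was called. Across the 706 domains the log2 fold change of H3K27ac correlated with that of H3K4me3 at Pearson r = 0.19 and with GC content at r = 0.31. The 2 modifications come from different libraries but share the loci, and the domains are not independent replicates.

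The fitted H3K4me1 level was lower with PR-957 at most domains, although few passed the test. Of 692 with a tested H3K4me1 locus, represented by 682 distinct loci, 28 fell and none rose, which is 4.05% beside 1.56% of all 34927 loci tested (0.767% lower and 0.79% higher). The log2 fold change was negative at 613 of the 692, with a median of -0.20 beside 0.01 over all loci, and both PR-957 libraries lay below both DMSO libraries at 438 (63.3%, beside 24.0% of all loci) and above at 21 (3.03%, beside 23.8%). The median per domain between single libraries was -0.26 and -0.21 for the PR-957 libraries over DMSO replicate 1 and -0.19 and -0.14 over DMSO replicate 2. The loci of 4 to 8 kb, 2 to 4 kb and under 2 kb had medians of -0.16, -0.15 and -0.11, so that the lower level was not confined to the broad domains. Across the 692 domains the log2 fold change correlated with GC content at Pearson r = -0.16. With offsets that take out the trend of all loci on GC content, a setting added with the data in view, the median of the domains was -0.11 with 5 called, and those of the narrower classes were -0.08, -0.09 and -0.11 in the same order. With cyclic loess offsets 5 domains fell and 1 rose, with a median of -0.08. The share of H3K4me1 counts on the domains was 8.95% and 8.54% in DMSO and 7.86% and 8.12% in PR-957, without overlap (exact permutation test, two-sided, p = 0.333).

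The smallest p-value belonged to the domain of SIRT7, a deacetylase of the sirtuin family, and MAFG, a small MAF transcription factor, with 169.6 and 168 CPM in DMSO and 99.9 and 121 CPM in PR-957 of H3K4me1 and a log2 fold change of -0.60 ± 0.12 (SE) (edgeR adjusted p = 0.00398). RPL19 with CACNB1 had 97.2 and 102 CPM in DMSO and 69.9 and 65.5 CPM in PR-957 and a log2 fold change of -0.56. The NEAT1 domain, 29070 bp from FRMD8, had 168 and 151 CPM in DMSO and 113 and 112 CPM in PR-957 and a log2 fold change of -0.51, while its H3K27ac and H3K4me3 had log2 fold changes of 0.00. In these domains both PR-957 libraries lay below both DMSO libraries. Of 23 tested domains of ribosomal protein genes 3 fell, beside 28 of the 692 domains (4.05%), among them RPL19 and RPL28 (-0.64). Of 15 tested domains of immediate early genes and feedback inhibitors 1 fell, that of DUSP6 (-0.69), a phosphatase that inactivates ERK, and of 6 domains of chromatin regulators 1 fell, that of KDM6B (-0.53), an H3K27 demethylase. Domains outside these lists that fell, named after their values were seen, were those of EGR3 (-0.66), BAZ2A, ZMYND8, SRGN, the proteoglycan of myeloid granules (-0.47), BBC3, a trigger of apoptosis (-0.49), and CDC37, a partner of the chaperone HSP90 (-0.44). Others among the 10 smallest p-values were TMEM238 with RPL28, GSE1 (-0.53), PARL (-0.49), SEPTIN5 (-0.59) and GMFG with SAMD4B (-0.48). None of the 28 calls held under all 13 alternatives: none remained when DMSO replicate 2 was left out, 1 when PR-957 replicate 1 was, 8 for DMSO replicate 1 and 10 for PR-957 replicate 2. The loss without DMSO replicate 2 was not particular to the domains, as it held for all H3K4me1 loci tested. DESeq2 made 7 of the calls and gave no adjusted p at a part of the others, EGR3 and KDM6B among them. With the GC trend removed 2 remained.

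H3K27me3 fell at 20 domains and rose at 2 of the 77 with a tested H3K27me3 locus, 28.6% called beside 4.03% of all 12355 loci (3.86% lower and 0.17% higher). The tested loci of 4 to 8 kb, 2 to 4 kb and under 2 kb were called in 20.8%, 15.1% and 16.0%, with median log2 fold changes of -0.12, -0.13 and -0.13 beside -0.17 in the domains, so that the calls were not confined to the broad ones. An H3K27me3 locus overlapped 1 further domain, which did not pass the filter on low counts. The scaling decides the sign of small changes here, as TMM places the median of all loci at 0.03 and library size alone at 0.24, a shift of -0.21. With library size alone, 10 domains fell and 13 rose, and 12 of the 22 calls remained. With cyclic loess offsets 12 fell and 9 rose, and with a mean count of at least 50 the numbers were 18 and 8. Relative to the median of all loci the median of the domains was -0.20 with TMM and with library size alone, and -0.04 with cyclic loess offsets. Both PR-957 libraries were below both DMSO libraries at 37 of the 77 (48.1%, beside 18.9% of all loci) and above at 15 (19.5%, beside 19.2%). Of the 41 domains covered over at least 50%, 17 fell and 1 rose, with a median log2 fold change of -0.27. Of the 36 tested domains covered over less than 50%, 3 fell and 1 rose, with a median of 0.00. Across the 77, the log2 fold change correlated with the percent covered at Pearson r = -0.46 and with GC content at r = 0.40, as a description over loci that share libraries.

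The largest decrease with a call lay at SKIDA1, a gene known among targets of KMT2A fusions, whose domain of 15266 bp (chr10:21505414-21520680) held 504 and 469 CPM in DMSO and 288 and 287 CPM in PR-957. It fell by 0.76 on the log2 scale (SE 0.08, edgeR adjusted p = 4.17e-18). ADM, the peptide hormone adrenomedullin, held 178 and 184 CPM in DMSO and 109 and 116 CPM in PR-957, with a log2 fold change of -0.68 ± 0.11 (SE). The HOXA domain, which lies whole inside an H3K27me3 locus of 119893 bp (chr7:27143865-27263758), held 15472 and 14704 CPM in DMSO and 11334 and 10016 CPM in PR-957 and fell by 0.50 (edgeR adjusted p = 2.35e-15). That call was lost without DMSO replicate 1, where the adjusted p was 0.112 and the log2 fold change -0.49. Over the 13 alternatives the log2 fold change at HOXA lay between -0.62 and -0.14, the latter with cyclic loess offsets, and it was -0.29 with library size only. In these domains the PR-957 libraries were below the DMSO libraries without overlap.

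Domains of other regulators of development fell as well. STK3 with OSR2 had 2975 and 2912 CPM in DMSO and 2116 and 2041 CPM in PR-957. HMX3 with HMX2, homeobox factors of the inner ear and nervous system, had 1956 and 1947 CPM in DMSO and 1409 and 1389 CPM in PR-957. OTX1 had 1115 and 1099 CPM in DMSO and 802 and 784 CPM in PR-957. None of these treatments overlapped. Their log2 fold changes were -0.50 ± 0.06 (SE), -0.48 ± 0.06 (SE) and -0.48 ± 0.07 (SE), with edgeR adjusted p of 7.09e-14, 5.02e-12 and 8.08e-11. The log2 fold change was -0.45 at RNF220, a ubiquitin ligase, -0.44 at ONECUT2 and -0.45 at PTCH1. Further domains that fell, by the same test, included BARX1, DLX2, RSRC1 with SHOX2, NKX2-3, ISL2, NR4A3, BAHCC1, CATSPERZ with ESRRA, SFTPC with BMP1 and EIF4E3 with GPR27, between -0.51 for NR4A3 and -0.24 for NKX2-3. Each value is that of the overlapping H3K27me3 locus, which was wider than the domain at 38 of the 78 domains with 1. At SFTPC with BMP1, H3K27me3 covered 44.1% of the domain. The 2 that rose were CRIP1 with TEDC1 (876 and 898 CPM in DMSO and 1195 and 1089.8 CPM in PR-957, log2 fold change 0.36) and RAB26 with TRAF7 (27.03 and 29.2 CPM in DMSO and 52.0 and 41.1 CPM in PR-957, 0.72). Both lost the call without DMSO replicate 1 or 2 and with the GC trend removed, and RAB26 with TRAF7 also without PR-957 replicate 1. Leaving out DMSO replicate 1 kept 10 of the 22 calls and leaving out DMSO replicate 2 kept 9. The calls at BARX1, CATSPERZ with ESRRA, DLX2, SFTPC with BMP1, NKX2-3, ISL2, BAHCC1 and EIF4E3 with GPR27 were lost without either of them, that at PTCH1 without DMSO replicate 1 (adjusted p = 0.0621), and those at SHOX2 and NR4A3 without DMSO replicate 2. Scaling by library size only, and likewise cyclic loess offsets, lost the calls at NKX2-3 (adjusted p = 0.788 and 0.992), CATSPERZ with ESRRA, SFTPC with BMP1, ISL2, BAHCC1 and EIF4E3 with GPR27. The calls at DLX2, SHOX2 and NR4A3 were lost with library size only, and that at BARX1 with cyclic loess offsets (adjusted p = 0.0805). The log2 fold change at NKX2-3 was -0.013 with those offsets and that at BARX1 -0.11. Without PR-957 replicate 2, ISL2, BAHCC1 and EIF4E3 with GPR27 lost the call as well. The calls at SKIDA1, OSR2, HMX3, OTX1, RNF220, ONECUT2 and ADM, 7 of the 22, held under all 13 alternatives. Of the covered domains that were not called, CBX8 had a log2 fold change of -0.13, EGR3 -0.17, CCND1 -0.25 and GATA2 -0.27.

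**Figure D4:**
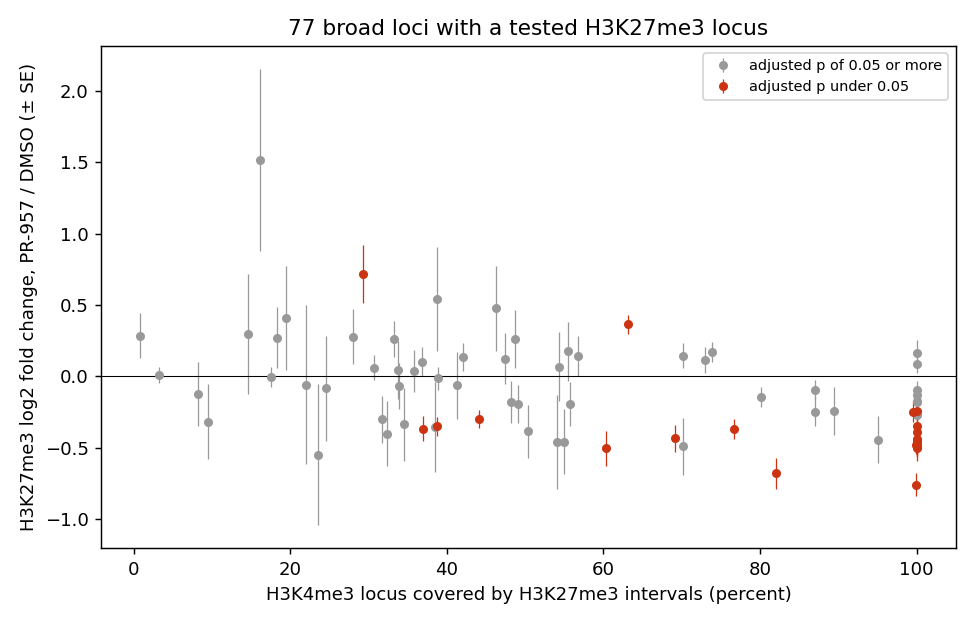
Log2 fold change of H3K27me3 between PR-957 and DMSO (vertical axis, points with SE from edgeR) at the 77 broad domains with a tested H3K27me3 locus, against the percent of the domain covered by H3K27me3 intervals (horizontal axis). Called domains (red) lie mostly at 50% cover or more and below 0; the 2 above 0 are RAB26 with TRAF7 and CRIP1 with TEDC1.

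Changes in more than 1 modification were rare. Of the 710 domains, 649 were called in none, 57 in 1 and 4 in 2. At HOXA both H3K27ac (-0.20) and H3K27me3 (-0.50) fell. At OTX1 H3K4me3 rose (0.41) and H3K27me3 fell (-0.48). At NR4A3 H3K27ac rose (0.35) and H3K27me3 fell (-0.51), and at NKX2-3, a homeobox factor, H3K4me1 (-0.85) and H3K27me3 (-0.24) fell while H3K4me3, at 16.2 and 14.98 CPM in DMSO and 22.0 and 20.2 CPM in PR-957, had a log2 fold change of 0.43 that did not pass. The 4 homeobox-type domains without H3K27ac thus had H3K27me3 log2 fold changes of -0.48 (OTX1), -0.44 (ONECUT2), -0.35 (BARX1) and -0.24 (NKX2-3). All 4 were called with TMM scaling, though NKX2-3 and BARX1 not with cyclic loess offsets. Their H3K4me3 log2 fold changes were 0.41, 0.18, 0.18 and 0.43 in the same order, and that of OTX1 was called. Their H3K4me3 in DMSO was 66.1, 84.4, 23.8 and 15.6 CPM. H3K4me3 loci under 2 kb, with a median of 3.12 CPM per kb in DMSO, had a median log2 fold change of 0.16. Whether the rises at these 4 domains go with a low level was not tested. At the PSMC2 domain, the 1 proteasome gene in the set, no modification was called, with log2 fold changes of -0.03 for H3K4me3, 0.01 for H3K27ac and -0.38 for H3K4me1.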

How the data were processed

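Counts per listed interval were deposited, 1 file per library for each of the 4 modifications, and the authors made them from Cut&Tag reads aligned to hg38. The submitters' processing notes name Trimmomatic 0.39, Bowtie2 2.2.5, Picard 2.27.1, SAMtools 1.7, SEACR 1.3 and deepTools 3.5.1. The counting tool, the treatment of duplicates and the build of the interval list from the libraries are not given in the sources used here. Listed intervals of 1 modification overlap each other and count the same fragments, so each locus entered once. The files of 1 modification share 1 interval list, and the 2 IgG samples were not analysed here.

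Intervals were merged with Python 3.11.15, pandas 2.3.3 and numpy 2.4.6, sequence was read with pysam 0.24.0, and plots were drawn with matplotlib 3.10.9. Start sites came from GENCODE release 44, promoters and microRNAs from RefSeq (GRCh38.p14, the same build). For the other modifications a domain was represented by the locus that overlaps it by the most bases. PR-957 was compared with DMSO within each modification with edgeR 4.0.16, by its quasi-likelihood test (R 4.3.3, limma 3.58.1), with TMM factors, filterByExpr (minimum count 10), no block, and Benjamini-Hochberg adjustment over all loci of the modification at 0.05. The common biological coefficient of variation was 0.0628 for H3K4me3, 0.124 for H3K27ac, 0.106 for H3K4me1 and 0.149 for H3K27me3. The fit was tested on simulated data.

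There were 13 alternative fits. In 3 the scaling was by median-of-ratios factors, by cyclic loess offsets or by library size only, in 2 the filter was dropped or set to a mean count of 50 or more, and in 4 a library was left out. The others used DESeq2 1.42.0, a block for the replicate number, all listed intervals together, and offsets without the trend on GC content (lowess span 0.3), the last chosen after seeing the data. Other widths (6 kb, 10 kb, or a single interval of 8 kb) and a cover of at least 50% were tried as well.

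The members and the gene lists (KMT2A fusion targets in the study and others, myeloid and other-lineage transcription factors, myeloid surface and granule proteins, tumor suppressors, immediate early and feedback genes, chromatin and KMT2A complex, housekeeping, proteasome, and markers) were chosen with earlier results of these data known. Named were the 15 widest domains, up to 10 called domains per direction and modification with the smallest p, up to 6 per gene list by width, 3 loci on either side of 8 kb, and the 10 domains highest in H3K27ac and in H3K27me3 per kb. Histone and ribosomal protein genes, and other genes said to be so, were grouped after their values were seen. Some domains that these rules would name are not reported here.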

Additional observations from a re-analysis of the deposited data

How the results depend on the processing

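The number of broad domains was 1981 at a width of 6 kb or more and 336 at 10 kb or more, instead of 710. Calls of H3K4me3, 2 in the main analysis, were 4 with library size only (3 higher), 4 with cyclic loess offsets, 0 with DESeq2 and 6 at 6 kb. For H3K27ac, with 13 calls, they were 7 with loess offsets, 22 at 6 kb and 6 at 10 kb. For H3K4me1, with 28, they were 18 with library size only, 6 with loess offsets, 9 with DESeq2, 5 with the GC trend removed (chosen after seeing the data), 50 at 6 kb and 14 at 10 kb. For H3K27me3, with 22, they were 39 at 6 kb and 12 at 10 kb. With 1 library left out, calls ranged from 0 to 3 for H3K4me3, 6 to 12 for H3K27ac, 0 to 14 for H3K4me1 and 9 to 28 for H3K27me3.

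The median log2 fold change of H3K27ac was -0.0205 with library size only, -0.0129 with loess offsets and -0.0046 with a mean count of at least 50. That of H3K4me1 was -0.13, -0.0807 and -0.15 with the same settings, -0.16 with all intervals fitted together and -0.11 with the GC trend removed. That of H3K27me3 turned to 0.0369 with library size only and was -0.0515 with loess offsets, -0.0745 with a mean count of at least 50, -0.0831 at 10 kb and -0.27 at a cover of at least 50%. With 1 library left out, the median of H3K4me3 ranged from -0.0785 to 0.0028 and the difference in its share of counts from -0.464 to 0.0457 percentage points, both above 0 without PR-957 replicate 1. The difference in the share of H3K27ac counts was -0.423 at 6 kb and -0.227 at 10 kb, and the domains with a wide H3K27ac locus were 49.9% for a limit of 8 kb and 12.4% for 15 kb. The cause of these shifts was not tested.

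The replicate numbers are shared between treatments, but the labels do not tie a number to a culture or day, and same-numbered libraries correlated in their deviations from the group means at 0.169 for H3K4me3, -0.0095 for H3K27ac, 0.03 for H3K4me1 and -0.0043 for H3K27me3. With the replicate number as a block, 2, 12, 29 and 22 domains were called and the medians were -0.03, -0.05, -0.20 and -0.17, in the same order.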
